A study of Mus musculus with 6 samples.

Results

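Collagen chains are the products of the *Col* genes, which encode the α chains of the collagens of bone, skin, vessel walls and basement membranes. The genes were taken by name, as the rows of the count table whose mouse symbol is Col, a number, the letter a and another number, which gave 44 genes of the 39179 Ensembl rows. No measured value entered this rule, though it was set with earlier results of these data known. By collagen class they are 11 fibrillar chains, 6 of basement membrane (type IV), 6 of beaded filaments (type VI), 9 FACIT chains (fibril-associated collagens with interrupted helices), 4 transmembrane chains, 3 of short-chain networks, 2 multiplexins, the anchoring fibril chain *Col7a1*, and *Col26a1* and *Col28a1*, which were kept apart as other collagens.

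The RNA was that of primary osteosarcomas from 6 mice on the mixed C57BL/6 x 129/Sv x FVB background, with the total read counts of the libraries between 18076388 and 26954142. Mice No244, No316 and No368 had the genotype CD44+/+; Nf2Δ2/+ and mice No203, No279 and No364 the genotype CD44-/-; Nf2Δ2/+, written *Cd44*+/+ and *Cd44*-/- hereafter. CD44 is a cell surface receptor for hyaluronan and other matrix components, and *Nf2* encodes the tumor suppressor Merlin, 1 allele of which was mutated in every animal, so that no tumor of a mouse with intact *Nf2* was compared. Age, sex and litter of the mice were not used here, and the extraction note of the labels speaks of cell lines where the study's methods speak of tumor tissue.

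A collagen molecule is made of 3 α chains wound around each other, with a glycine at the first of each group of 3 residues, and it is this repeat that lets the chains pack into a rope. Fibrillar collagens form the cross-striated fibrils on which bone mineral is laid down, type IV forms the sheet of basement membranes, type VI forms beaded microfibrils around cells, and FACIT chains sit on the surface of fibrils. Osteoblasts are known for very high output of type I collagen, the heterotrimer of *Col1a1* and *Col1a2* chains, and osteoid, the collagen-rich matrix, is what pathologists look for in an osteosarcoma.

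The repeat is shown for 4 chains that the results turn on. They are the main chains of type I, type III and type IV collagen and *Col6a5*, a type VI chain that separated the genotypes. Each line is the first stretch of the longest repeat in the GENCODE M21 transcript with the longest coding sequence, 5′ to 3′. Capitals mark the GGN codons, which encode glycine.
Col1a1 codons 168 to 182: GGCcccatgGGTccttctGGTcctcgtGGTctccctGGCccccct
Col3a1 codons 164 to 178: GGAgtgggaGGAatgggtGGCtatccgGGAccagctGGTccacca
Col4a1 codons 43 to 57: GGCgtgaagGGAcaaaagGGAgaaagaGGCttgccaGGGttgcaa
Col6a5 codons 1442 to 1456: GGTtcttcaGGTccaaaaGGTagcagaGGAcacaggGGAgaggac
The stretches look alike, and what differed between classes was the length over which the pattern runs without a break. The longest uninterrupted run was 338 units of 3 codons in *Col1a1* and 344 in *Col3a1*, and from 216 to 344 units (median 338) over the 11 fibrillar chains, the shortest runs being those of *Col24a1* with 216 and *Col27a1* with 217. In the 6 type IV chains it was from 39 to 66 units, with 23 to 27 separate runs in a chain, and the breaks between the runs are known to make type IV collagen flexible. In the type VI chains it was from 37 to 87 units. *Col6a5*, with 37 units in its longest run, had the repeat in 12.2% of its 2640 codons, against 73.3% of the codons of *Col1a1*.

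Several of the genes lie side by side in the mouse genome (GRCm38). *Col4a1* and *Col4a2* on chromosome 8 are transcribed away from each other with starts 21 bp apart, and *Col4a4* and *Col4a3* on chromosome 1 with starts 72 bp apart. *Col6a6*, *Col6a5* and *Col6a4* follow each other on the minus strand of chromosome 9 with gaps of 27917 and 28810 bp, and *Col6a2* and *Col6a1* on the minus strand of chromosome 10 with a gap of 85161 bp. *Col3a1* and *Col5a2* meet tail to tail on chromosome 1, 24614 bp apart. The strand setting of the read counting was not given in the sources used here, so counts of chains that overlap a gene on the other strand are uncertain. This concerns 18 of the 44 chains, among them *Col10a1* within *Nt5dc1*, *Col9a3* with *Tcfl5*, *Col18a1* with *Slc19a1* and, over 22 bp, *Col4a1* with *Col4a2*. Predicted or little known genes lie opposite *Col4a5*, *Col6a4*, *Col12a1*, *Col13a1*, *Col22a1* and others, whereas none is annotated opposite *Col6a5*, *Col8a1* or *Col11a2*.

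The libraries have to be described before the chains. *Cd44* itself had 19.2 CPM in No203, 15.7 in No279 and 61.8 in No364, against 137 in No244, 244 in No316 and 240.3 in No368 (CPM being read counts scaled to a library of 1e+06 reads, here by TMM), so every *Cd44*-/- tumor was below every *Cd44*+/+ tumor, with reads left in all of them (log2 fold change -2.68 ± 0.65, SE, edgeR adjusted p = 0.452). The counts of No316 and No368 were nearly proportional, since 12.8% of 16671 genes differed beyond binomial sampling noise between them, against 75.9% to 84.3% of the genes in the other 14 pairs, and they were counted as 1 sample in every mean ± SD (n = 2 for *Cd44*+/+, n = 3 for *Cd44*-/-). The fits used all 6 libraries as deposited, and fits with this pair summed are given where they change a call. Mitochondrial genes took 55.2% of the counts of No244 and from 5.94% to 12.5% in the others.

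The label osteosarcoma was checked on 8 osteoblast markers. Their summed level was 8518 CPM in No244, 6953 in No316, 6599 in No368 and 6884 in No203, but 114 in No279 and 44.2 in No364, where *Sp7*, the osteoblast transcription factor, was at 3.96 and 0.31 CPM against 192 or more in the other tumors. These markers, none of them at 0, were thus nearly absent from 2 of the 3 *Cd44*-/- tumors. Summed markers of hepatocytes (8 genes) were 116209 CPM in No364 and from 40.3 to 146 CPM in the others, those of skeletal muscle (7 genes) 18729 CPM in No244 and from 14.8 to 711 CPM in the others, and those of fibroblasts and tendon (7 genes) 3700 CPM in No279 and from 308 to 901 CPM in the others. All 8 hepatocyte genes were highest in No364 and all 7 muscle genes in No244. Of the 7 fibroblast and tendon genes, 4 were highest in No279 (*Pdgfra*, *Dpt*, *Dcn* and *Lum*), where *Lum* had 2060 and *Dcn* 920 CPM. The tendon genes of that list, *Scx*, *Tnmd* and *Mkx*, were not highest in No279. In bulk tumor RNA fewer cells of a type and less RNA per cell cannot be told apart. The part of these differences in the collagen levels was not tested. A value given without a tumor leaves out that whole library, so it does not single out a cell type.

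Collagen chains together took a share of all counts that differed widely within the *Cd44*-/- group. It was 8.94% in No203, 6.18% in No279 and 0.308% in No364, against 1.71%, 6.56% and 6.73% in No244, No316 and No368. The *Cd44*-/- group thus held both the highest and the lowest share. With mitochondrial genes left out the shares were from 3.82% (No244) to 7.19% (No368) in the *Cd44*+/+ tumors, against 10.01% in No203, 6.57% in No279 and 0.352% in No364, and No364 remained lowest.

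Of the 44 chains, 33 passed the filter on low counts and entered the fit, 31 had at least 3 counts in every tumor, and 1, the FACIT chain *Col19a1*, was under 3 counts in every tumor with a single read in all. The 11 that did not pass were *Col4a3*, *Col4a4*, *Col4a5* and *Col4a6* of basement membrane, *Col6a4* and *Col6a6*, the FACIT chains *Col9a1*, *Col9a2* and *Col19a1*, the transmembrane chain *Col17a1*, and *Col26a1*. The chains spread widely over the tumors. For 23 of the 33 the highest tumor was over 10-fold above the lowest, and 3 of the 33 were at 0 in a tumor. The median ratio of the highest to the lowest tumor was 16.4 over the chains above 0 in every tumor and 4.19 over the 16361 such genes of the whole table.

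**Figure D1:**
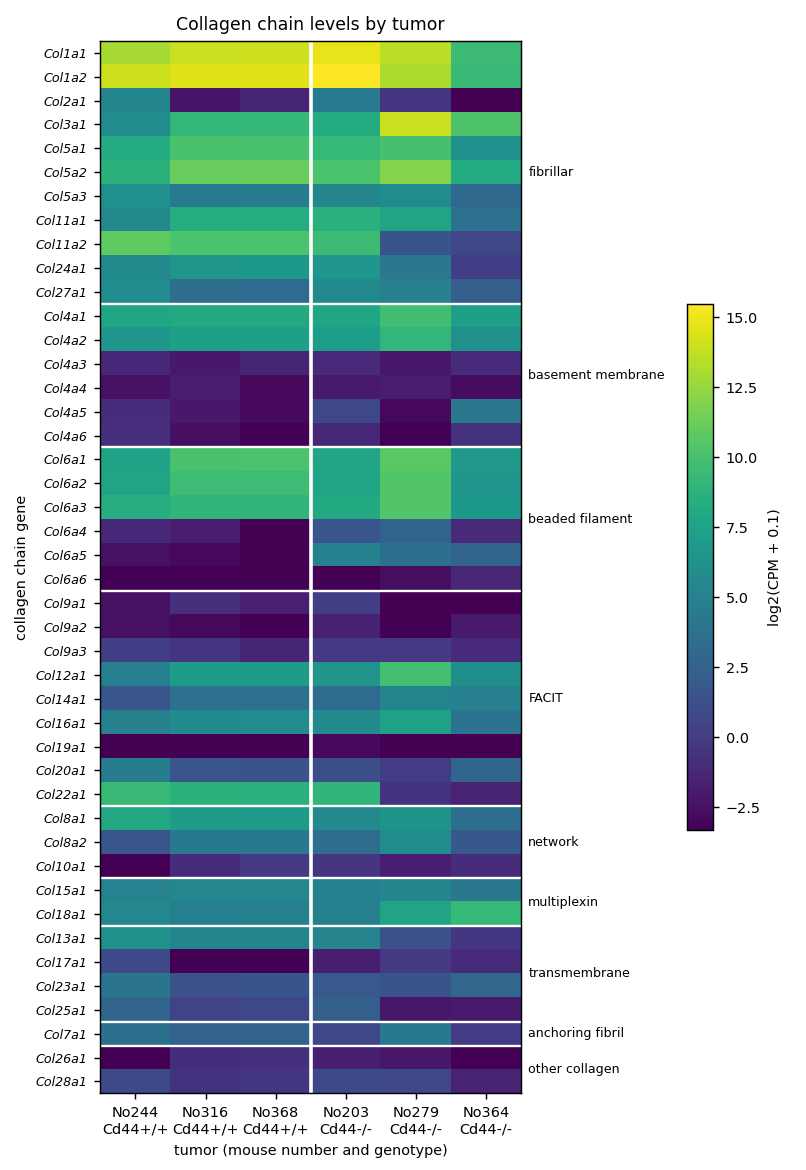
Level of each of the 44 collagen chains (rows, grouped by class) in each tumor (columns), as log2 of CPM plus 0.1, with a white line between the genotypes. *Col1a1* and *Col1a2* are brightest in most tumors, *Col11a2* and *Col22a1* are dark in No279 and No364 alone, and *Col6a5* is dark in the 3 *Cd44*+/+ tumors.

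To set levels of different genes side by side, CPM was divided by the summed exon length in kilobases. On this scale the mean level over the 6 tumors was 2131 for *Col1a1*, 1628 for *Col1a2* and 324 for *Col3a1*. It was 179 for *Col5a2*, 166 for *Col6a1*, 118 for *Col11a2*, 82.2 for *Col5a1*, 68.8 for *Col6a2*, 44.0 for *Col6a3*, 43.9 for *Col4a1*, 37.5 for *Col22a1* and 29.3 for *Col4a2*. The list is led by the chains of type I collagen, and it includes 2 chains of narrower use, *Col11a2* and *Col22a1*. The place of *Col3a1* rested on No279, where its level per kilobase was 1670.1, against 5.38 to 58.5 in No203 and the *Cd44*+/+ tumors and 123 in No364. Without No279, an alternative chosen after seeing the data, the mean of *Col3a1* was 55.1, below *Col11a2* with 141, *Col5a2* with 129.8, *Col6a1* with 126 and *Col5a1* with 74.6. With the length of the transcript holding the longest coding sequence in place of all exons, the same 12 chains led. On this scale, an alternative chosen after seeing the data, *Col1a2* with 3783 stood above *Col1a1* with 2358.

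Counted over all chains, no difference between the genotypes passed the threshold of the main test. None of the 33 chains tested had an adjusted p under 0.05 (edgeR quasi-likelihood test, Benjamini-Hochberg), and neither did any of the 16839 genes tested (0.0% called, with 1085 genes higher and 725 lower at an unadjusted p under 0.05). At an unadjusted p under 0.05, 2 chains (*Col6a5* and *Col18a1*) were higher in *Cd44*-/- tumors, 6.06% of the chains against 6.44% of all genes, and 1 (*Col8a1*) was lower, 3.03% against 4.31%. Leaving out a tumor changed these counts, as 1 chain was higher without No316, and 5 were lower without No203, 2 without No279 and none without No244, No316 or No368. With No316 and No368 summed, 2 of 37 chains (*Col6a4* and *Col6a5*) were higher, where 1.82% of all genes were, and none was lower, where 2.45% of all genes were. The lowest *Cd44*-/- tumor lay above the highest *Cd44*+/+ tumor for 1 of the 33 chains (*Col6a5*), 3.03% against 9.49% of all genes, and the reverse held for 3 (*Col8a1*, *Col11a2* and *Col13a1*), 9.09% against 9.57% of all genes. *Col6a5* had at most 1 read in a *Cd44*+/+ tumor and passed the filter through the *Cd44*-/- tumors alone. Its place among the 33 is therefore not independent of its difference. *Col6a4*, with at most 5 reads in a *Cd44*+/+ tumor, likewise passed the filter of the fit with the pair summed through the *Cd44*-/- tumors. The places of both chains among the 37 are therefore not independent of their differences. DESeq2 called 1 chain (*Col6a5*) higher, where it called 1.21% of all genes higher, and none lower, where it called 1.12%. Without its Cook's distance filter, which sets aside genes with an outlying tumor, it called 4 of 40 chains higher (*Col4a5*, *Col6a4*, *Col6a5* and *Col18a1*), where it called 4.67% of all genes, and none lower, where it called 1.48%. *Col4a5*, *Col6a4* and *Col18a1* had not been set aside by the filter. With it their DESeq2 adjusted p was 0.0753, 0.0547 and 0.0670. The log2 fold change (*Cd44*-/- over *Cd44*+/+, as throughout) was above 0 for 16 chains and below 0 for 17, with a median of -0.14, against 0.11 over all genes tested.

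**Figure D2:**
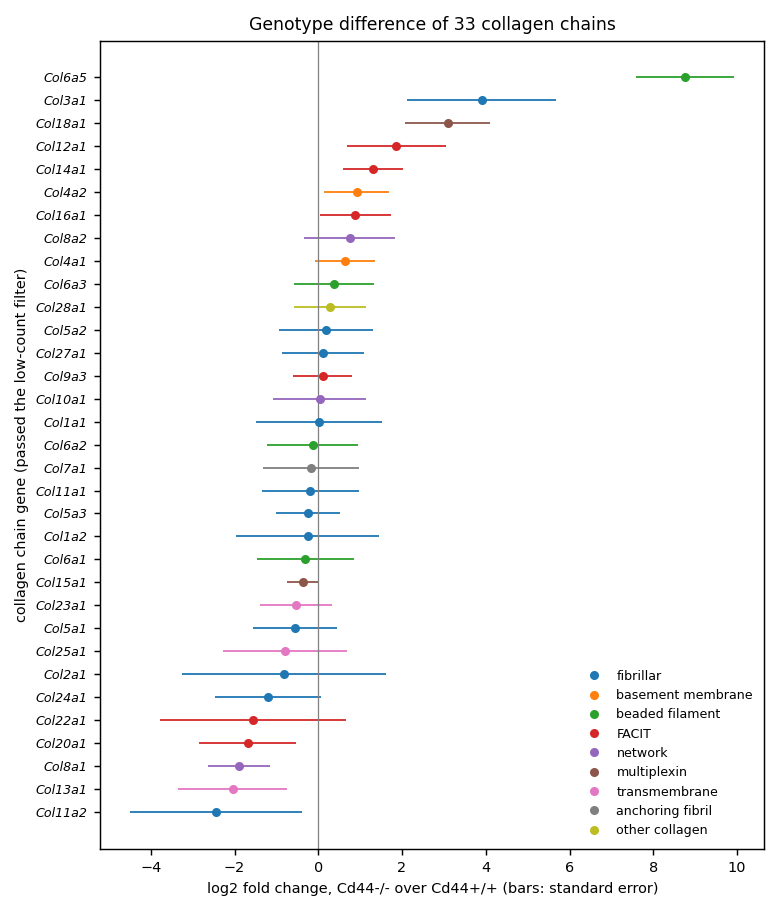
Log2 fold change between genotypes for the 33 collagen chains that passed the filter, ordered by size and colored by class, with bars of 1 standard error from edgeR. The values run from -2.44 (*Col11a2*) to 8.76 (*Col6a5*), and none has an adjusted p under 0.05.

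The order of the tumors was uneven over the chains. No364 was the lowest tumor for 22 of the 33 chains (66.7%), where it was lowest for 24.6% of all genes tested, and highest for 1 chain, where it was highest for 25.0% of all genes. No279 was highest for 12 chains (36.4%, against 21.5% of all genes) and No244 for 11 (33.3%, against 22.9%). No203 was highest for 5 chains (14.2% of all genes), No368 for 4 (7.81%) and No316 for none (8.59%). As No316 and No368 were nearly proportional, which of them ranked higher may be sampling noise. The 12 chains highest in No279 were *Col3a1*, *Col5a2*, *Col4a1*, *Col4a2*, *Col6a1*, *Col6a2*, *Col6a3*, *Col7a1*, *Col8a2*, *Col12a1*, *Col14a1* and *Col16a1*. Those highest in No244 included *Col2a1*, *Col11a2*, *Col13a1*, *Col22a1* and *Col8a1*. The fibroblast markers highest in No279 and the muscle markers highest in No244 are given with the libraries, and their part in these orders was not tested.

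Type I collagen, the main protein of bone matrix, took the largest share of the collagen counts of any type in every tumor. *Col1a1* had 29441 CPM in No203, 11990.4 in No279 and 765 in No364, against 8482 in No244, 16305 in No316 and 16925 in No368. *Col1a2* had 45690.0 CPM in No203, 8995 in No279 and 656 in No364, against 16706 in No244, 24362 in No316 and 24975 in No368. For both chains No203 was highest and No364 lowest, both in the *Cd44*-/- group, so that the genotypes overlapped entirely. The mean of *Col1a1* was 12549 ± 5751 CPM (SD, n = 2) in *Cd44*+/+ and 14065 ± 14450 CPM (SD, n = 3) in *Cd44*-/- tumors, and the log2 fold change was 0.02 ± 1.50 (SE, edgeR quasi-likelihood test, adjusted p = 0.998). For *Col1a2* it was -0.26 ± 1.70 (SE, adjusted p = 0.961). The direction of both turned with the tumors kept, as *Col1a1* had -1.17 without No203 and 0.58 without No364, and *Col1a2* -2.23 and 0.32. The ratio of *Col1a1* to *Col1a2* counts was from 0.508 to 0.678 in the *Cd44*+/+ tumors and No203, but 1.33 in No279 and 1.17 in No364.

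*Col3a1*, the chain of type III collagen, which forms thin fibrils in skin, vessel walls and loose connective tissue and little in bone, followed another order. It had 301 CPM in No203, 16394 in No279 and 1204 in No364, against 52.9 in No244, 573 in No316 and 575 in No368. No279 stood far above all other tumors, No364 was next and No244 was lowest, and No203 lay within the *Cd44*+/+ range. The mean was 313 ± 368 CPM (SD, n = 2) in *Cd44*+/+ and 5966 ± 9042 CPM (SD, n = 3) in *Cd44*-/- tumors. The log2 fold change of 3.90 ± 1.78 (SE) was not called (edgeR, adjusted p = 0.472), and without No279 it was 0.90. Within a tumor, the ratio of *Col3a1* to *Col1a1* counts was 0.00623 in No244, 0.0352 in No316, 0.0340 in No368 and 0.0102 in No203, against 1.37 in No279 and 1.57 in No364. The tumors with few osteoblast markers were thus also those in which *Col3a1* counts exceeded *Col1a1* counts. Per kilobase of exons, *Col3a1* was at 1670.1 against 1827 for *Col1a1* in No279, and at 123 against 117 in No364. Across the tumors the ratio of counts spanned 252.5-fold.

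**Figure D3:**
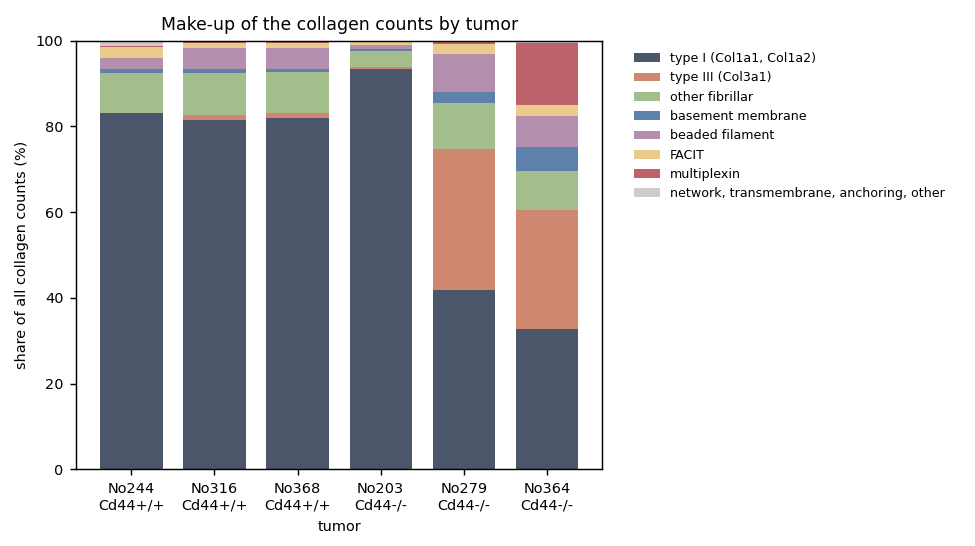
Share of all collagen counts in each tumor, in percent, stacked by type or class. Type I takes from 81.5% to 93.4% in the *Cd44*+/+ tumors and No203, 41.9% in No279 and 32.7% in No364, where type III takes 32.7% and 27.7%.

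The make-up of the collagen counts therefore split the *Cd44*-/- group. Type I took 83.1% of the collagen counts in No244, 81.5% in No316, 82.0% in No368 and 93.4% in No203, but 41.9% in No279 and 32.7% in No364. All fibrillar chains together took from 92.4% to 92.6% in the *Cd44*+/+ tumors, and 97.6%, 85.4% and 69.5% in No203, No279 and No364. Multiplexins, at most 0.493% in the other 5 tumors, took 14.4% in No364. The shares rest on 83002 (No364) to 2028244 (No203) collagen counts per tumor.

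The minor fibrillar chains of types V and XI, which nucleate fibrils and limit their thickness, were led by *Col5a2* and *Col11a2*. *Col5a2* had 1117 CPM in No203, 4069 in No279 and 295 in No364, against 439.5 in No244, 2208 in No316 and 2166 in No368. *Col5a1* had 607 CPM in No203, 1017 in No279 and 71.4 in No364, against 302 in No244, 1091 in No316 and 1097 in No368. Both were lowest in No364 and their genotypes overlapped. Their partner *Col5a3* ran from 8.64 CPM in No364 to 74.3 CPM in No244.

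*Col11a2*, a chain of type XI collagen best known from cartilage, was the fibrillar chain whose genotypes did not overlap. It had 750.3 CPM in No203, 2.91 in No279 and 1.47 in No364, against 1785 in No244, 1165 in No316 and 1145 in No368. No203 was below the lowest *Cd44*+/+ tumor, and No279 and No364 were close to 0 beside the other 4. The mean was 1470.0 ± 446 CPM (SD, n = 2) in *Cd44*+/+ and 252 ± 432 CPM (SD, n = 3) in *Cd44*-/- tumors. The fitted log2 fold change was -2.44 ± 2.05 (SE, edgeR adjusted p = 0.657), and without No203 it was -9.31, so the size of the difference depended on that tumor. *Col11a1* had 386 CPM in No203, 203 in No279 and 13.3 in No364, against 45.9 in No244, 320.2 in No316 and 320.5 in No368. Its genotypes overlapped, and it was not low in No279. The ratio of *Col11a2* to *Col11a1* counts was 38.9 in No244, 3.64 in No316, 3.57 in No368 and 1.94 in No203, against 0.0143 in No279 and 0.110 in No364, a 2718-fold span. The 8 chondrocyte markers summed to 19.9 CPM in No244, 175 in No316, 177 in No368, 35.3 in No203, 184 in No279 and 33.6 in No364. From 1 to 4 of the 8 were at 0 in a tumor, *Hapln1* made up 161 CPM of the sum in No316 and *Acan* 153 CPM of that in No279, and the part of cartilage in the levels of *Col11a2* was not tested. *Col2a1*, the main cartilage collagen, was at 38.3 CPM in No244, 21.0 CPM in No203 and at most 0.63 CPM in the others.

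*Col24a1* and *Col27a1*, fibrillar chains with shorter repeats, ran from 0.99 CPM in No364 to 103 CPM in No368 and from 5.02 CPM in No364 to 56.4 CPM in No244. Over the 11 fibrillar chains the log2 fold change was above 0 for 4 and below 0 for 7, with a median of -0.24.

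Type IV collagen was carried by *Col4a1* and *Col4a2*, the pair of chains found in nearly all basement membranes. *Col4a1* had 219 CPM in No203, 822 in No279 and 154 in No364, against 225 in No244, 271 in No316 and 276 in No368. *Col4a2* had 144 CPM in No203, 546 in No279 and 69.5 in No364, against 92.3 in No244, 153 in No316 and 158 in No368. No279 was highest and No364 lowest for both, within overlapping genotypes. Both moved together between tumors, with a *Col4a1* to *Col4a2* ratio of counts from 1.50 to 2.44. The summed markers of endothelium (7 genes), a cell type that lays down this collagen, were 399 CPM in No279, 87.8 CPM in No364 and 237 to 276 CPM in the others. Of the 7 genes, 3 were highest in No279 and 6 lowest in No364, none was at 0, and their part was not tested. *Col4a3*, *Col4a4* and *Col4a6*, the chains of kidney, eye and smooth muscle membranes, were at most 0.58 CPM. *Col4a5* had 1.63 CPM in No203, 0.03 in No279 and 17.4 in No364, against 0.42 in No244, 0.14 in No316 and 0.04 in No368. Of its 385 reads, 333 came from No364.

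Type VI collagen, which anchors cells in the surrounding matrix, is built from *Col6a1*, *Col6a2* and an additional long chain, in most tissues *Col6a3*. *Col6a1* had 221 CPM in No203, 1608 in No279 and 113 in No364, against 190.5 in No244, 1099 in No316 and 1128 in No368. *Col6a2* had 203 CPM in No203, 1342 in No279 and 91.3 in No364, against 203 in No244, 797 in No316 and 799 in No368. *Col6a3* had 268 CPM in No203, 1409 in No279 and 103 in No364, against 338 in No244, 532 in No316 and 509.8 in No368. All were highest in No279 and lowest in No364, and the genotypes overlapped, with log2 fold changes of -0.32, -0.14 and 0.37 (edgeR, adjusted p from 0.900 to 0.968). The ratio of *Col6a1* to *Col6a2* counts was from 0.937 to 1.41, the narrowest span (1.51-fold) among the 11 chain pairs computed.

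The long chains *Col6a4*, *Col6a5* and *Col6a6*, which resemble *Col6a3* and can take its place, behaved otherwise. *Col6a5* (chromosome 9, 105856078 to 105960643, minus strand) had 1 read in No244, 1 in No316 and none in No368, but 781 in No203, 362 in No279 and 127 in No364. In CPM this was 0.08, 0.03 and 0 against 31.0, 11.95 and 6.65. All *Cd44*+/+ tumors were under the 3 counts taken as the limit of detection, and all *Cd44*-/- tumors were far above it, so the genotypes did not overlap. Scaled for depth, the level was 549 times as high in the pooled *Cd44*-/- libraries as in the pooled *Cd44*+/+ libraries (1270 against 2 reads, 95% interval 152 to 4540, counting error only). The fitted log2 fold change was 8.76 ± 1.17 (SE), a size that depends on how counts near 0 are handled. The adjusted p over all genes tested was 0.452 by edgeR and 2.4e-08 by DESeq2. The log2 fold change lay between 7.89 (without No203) and 9.45 (without No244) when each tumor was left out in turn. With No316 and No368 summed to 1 sample the adjusted p was 0.818 by edgeR and 1.1e-06 by DESeq2.

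*Col6a4*, the next gene on the same strand, had 78 reads in No203, 200 in No279 and 7 in No364, against 4, 5 and 0 in No244, No316 and No368. In CPM this was 3.09, 6.60 and 0.37 against 0.34, 0.17 and 0, so the groups did not overlap, though No364 was barely above No244. Scaled for depth, the level was 27.4 times as high over the *Cd44*-/- libraries (285 against 9 reads, 95% interval 14.2 to 60.5, counting error only). It did not pass the filter. Without a filter the log2 fold change was 4.39 ± 1.52 (SE, edgeR adjusted p = 0.495), and the DESeq2 adjusted p was 0.0547. *Col6a6*, the third of the row, had 8 reads in all, 2 in No279 and 6 in No364. The ratio of *Col6a5* to *Col6a3* counts was 0.116 in No203, 0.00848 in No279 and 0.0647 in No364, so *Col6a5* stayed a minor chain beside *Col6a3* where it was found. Osteoblast markers were at 6884 CPM in No203, the tumor with most *Col6a5*, and nearly absent from No279 and No364, and the part of cell make-up in the *Col6a5* levels was not tested.

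**Figure D4:**
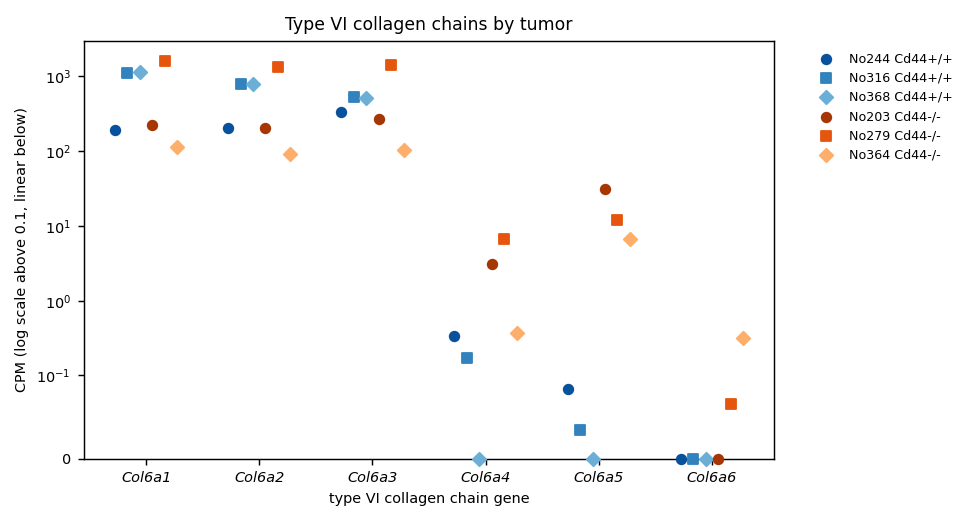
Level of the 6 type VI chains in each tumor, in CPM, on a log scale above 0.1 and a linear scale below. *Cd44*+/+ tumors are blue and *Cd44*-/- tumors orange, and the colors separate for *Col6a5* (at most 0.08 against at least 6.65 CPM) and by a small margin for *Col6a4*, but not for *Col6a1*, *Col6a2* or *Col6a3*.

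*Col8a1*, a short chain that forms hexagonal networks beneath endothelium and in vessel walls, had the smallest p among the chains that were lower in *Cd44*-/- tumors. It had 46.0 CPM in No203, 83.9 in No279 and 11.5 in No364, against 261 in No244, 132 in No316 and 134 in No368. Every *Cd44*-/- tumor was below every *Cd44*+/+ tumor, with No244 highest and No364 lowest. The mean was 197 ± 90.5 CPM (SD, n = 2) in *Cd44*+/+ and 47.1 ± 36.2 CPM (SD, n = 3) in *Cd44*-/- tumors, a log2 fold change of -1.90 ± 0.74 (SE, edgeR adjusted p = 0.452, DESeq2 adjusted p = 0.230). It was from -2.61 (without No279) to -1.43 (without No364) with 1 tumor left out. Its partner *Col8a2* ran from 3.19 CPM in No244 to 55.9 CPM in No279 and did not share the direction, with a log2 fold change of 0.75. The ratio of *Col8a1* to *Col8a2* counts was thus 81.9 in No244, 6.93 in No316, 7.004 in No368, 4.51 in No203, 1.50 in No279 and 3.17 in No364, higher in each *Cd44*+/+ tumor. *Col10a1*, the network chain of hypertrophic cartilage, was at most 0.76 CPM.

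**Figure D5:**
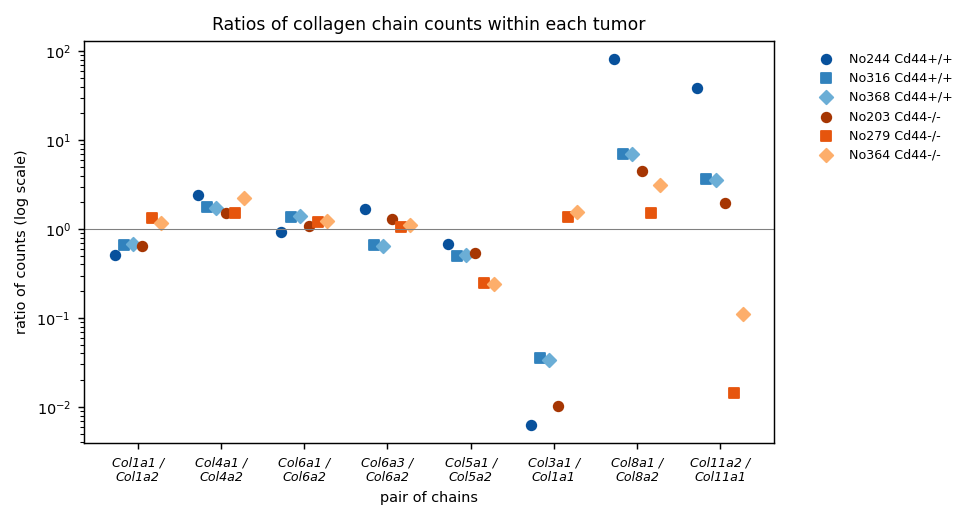
Ratio of the counts of 2 collagen chains within each tumor, on a log axis, for 8 pairs, with *Cd44*+/+ tumors in blue and *Cd44*-/- tumors in orange. The ratios of *Col4a1* to *Col4a2* and of *Col6a1* to *Col6a2* stay within 1.62-fold, whereas *Col5a1* to *Col5a2* spans 2.84-fold, *Col8a1* to *Col8a2* 54.5-fold, *Col3a1* to *Col1a1* 252.5-fold and *Col11a2* to *Col11a1* 2718-fold.

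*Col13a1*, a transmembrane collagen of cell and matrix junctions, was the remaining chain whose genotypes did not overlap. It had 33.7 CPM in No203, 2.48 in No279 and 0.68 in No364, against 81.6 in No244, 35.6 in No316 and 35.2 in No368. No203 was just below the lowest *Cd44*+/+ tumor, and No279 and No364 were far below. The log2 fold change was -2.04 ± 1.31 (SE, edgeR adjusted p = 0.564), and -5.02 without No203. The other transmembrane chains *Col17a1*, *Col23a1* and *Col25a1* ran up to 1.68, 15.04 and 6.81 CPM, each highest in No244.

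*Col18a1*, a multiplexin of basement membranes whose cleaved end is endostatin and which is known to be made by hepatocytes, was higher in 2 of the *Cd44*-/- tumors. It had 29.6 CPM in No203, 207 in No279 and 608 in No364, against 42.6 in No244, 27.6 in No316 and 28.8 in No368. No364 was highest and No279 next, while No203 lay within the *Cd44*+/+ range, so the genotypes overlapped. The mean was 35.4 ± 10.2 CPM (SD, n = 2) in *Cd44*+/+ and 282 ± 296 CPM (SD, n = 3) in *Cd44*-/- tumors, with a log2 fold change of 3.09 ± 1.01 (SE, edgeR adjusted p = 0.452, DESeq2 adjusted p = 0.0670). Without No364, the tumor with the high hepatocyte markers, it was 1.85. *Col18a1* was the only one of the 33 chains highest in No364. The other multiplexin, *Col15a1*, ran from 18.4 CPM in No364 to 41.4 CPM in No368, the smallest spread of the chains tested (2.25-fold).

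FACIT chains differed among themselves. *Col22a1*, known from the junction of muscle and tendon, had 525 CPM in No203, 0.56 in No279 and 0.26 in No364, against 695 in No244, 431 in No316 and 417 in No368. It was near 0 in No279 and No364 and of similar level in the other 4 tumors, the same split as for *Col11a2*, and No203 lay among the *Cd44*+/+ tumors. *Col12a1*, which decorates type I fibrils in tendon and periosteum, ran from 27.9 CPM in No244 to 930.2 CPM in No279. *Col14a1* and *Col16a1* were also highest in No279, with 35.6 and 178 CPM, and *Col20a1* was highest in No244 with 25.1 CPM. *Col9a1*, *Col9a2* and *Col9a3*, which cover cartilage fibrils, were at most 1.03 CPM. *Col7a1*, which anchors skin epithelium to dermis, ran from 0.89 CPM in No364 to 19.3 CPM in No279.

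Collagen needs a set of enzymes to be hydroxylated, folded, trimmed and cross-linked, and 47 such genes and collagen receptors were followed. Of the 45 tested, none had an edgeR adjusted p under 0.05, and DESeq2 called 1, *Bmp1*, which was lower, as were 1.12% of all genes it tested. With No316 and No368 summed DESeq2 called none, with 2 higher and 1 lower at an unadjusted p under 0.05. At an unadjusted p under 0.05, 2 were higher and 3 lower, where 6.44% and 4.31% of all genes were. The count of higher genes was 1 when No244, No316 or No368 was left out and 0 without No279, and that of lower genes was 6 without No203, 1 when No244, No316 or No368 was left out and 0 without No279. The genotypes did not overlap for 8 lower genes and for 4 higher genes (*Loxl2*, *Mia3*, *Pcolce2* and *Itga2*) of the 45, where this held for 9.57% and 9.49% of all genes. The median log2 fold change was -0.21.

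*Bmp1*, the protease that trims the carboxyl propeptide so that fibrils can form, had 364 CPM in No203, 154 in No279 and 105 in No364, against 1204 in No244, 785 in No316 and 769.7 in No368. Every *Cd44*-/- tumor was below every *Cd44*+/+ tumor. The log2 fold change was -2.15 ± 0.66 (SE, edgeR adjusted p = 0.452), the DESeq2 adjusted p was 0.0415 but 0.220 with No316 and No368 summed, and with 1 tumor left out the value was from -2.86 to -1.82. *Adamts14*, which trims the amino propeptide, had 27.9 CPM in No203, 9.21 in No279 and 3.98 in No364, against 42.5 in No244, 47.7 in No316 and 45.8 in No368, again without overlap (log2 fold change -1.73 ± 0.69, SE, edgeR adjusted p = 0.458). Of the 7 propeptide genes tested, 2 were thus lower and none higher at an unadjusted p under 0.05, where 4.31% and 6.44% of all genes were. With No316 and No368 summed, *Bmp1* was still under this threshold in edgeR and *Adamts14* was not.

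Among the lysyl oxidases, which cross-link fibrils, *Loxl2* and *Loxl3* lay on opposite sides. *Loxl2* had 26.6 CPM in No203, 64.2 in No279 and 6.91 in No364, against 0.84 in No244, 5.80 in No316 and 5.92 in No368, higher in every *Cd44*-/- tumor, with a log2 fold change of 2.95 ± 1.02 (SE, edgeR adjusted p = 0.452). *Loxl3* had 142 CPM in No203, 88.5 in No279 and 20.7 in No364, against 310.1 in No244, 264 in No316 and 263 in No368, lower in every *Cd44*-/- tumor, with -1.73 ± 0.69 (SE, edgeR adjusted p = 0.458). *P4ha3*, a subunit of prolyl hydroxylase, had 10.7 CPM in No203, 24.8 in No279 and 1.36 in No364, against 0.25 in No244, 2.29 in No316 and 1.97 in No368. No364 lay within the *Cd44*+/+ range, and the log2 fold change was 3.01 ± 1.20 (SE, edgeR adjusted p = 0.457). *Loxl2*, *Loxl3* and *P4ha3* each had an unadjusted p under 0.05 in edgeR. With No316 and No368 summed it was 0.0459, 0.0791 and 0.0752 in edgeR, so only *Loxl2* stayed under this threshold. None of the 9 collagen receptors tested had an unadjusted p under 0.05.

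The study searched the promoters of other genes, over a longer stretch, for 2 elements through which the intracellular domain of CD44 is thought to act, the CIRE and the TRE, and the same letters were looked for in front of the collagen genes. RefSeq (GRCm38.p6) gave a window of 250 bases before the start for 35 of the 44 genes, 38 windows in all. The CIRE (CCTGCG, read on both strands) was in 10 of the 38 windows (26.3%) and in 14.1% of all 32851 windows, the TRE (TGAGTCA, whose other strand reads TGACTCA) in 1 (2.63%, *Col6a1*) and in 4.46% of all. A GC box (GGGCGG) was in 22 windows (57.9%, against 32.7% of all), a CCAAT box in 13 (34.2%, against 33.8%) and the core RUNX site TGTGGT in 3 (7.89%, against 14.0%), all read on both strands. The 4 windows of genes in the fit whose genotypes did not overlap are shown 5′ to 3′ on the strand of the gene, with every match to any of the 5 motifs in capitals.
Col6a5, chr9:105960644-105960893, minus strand: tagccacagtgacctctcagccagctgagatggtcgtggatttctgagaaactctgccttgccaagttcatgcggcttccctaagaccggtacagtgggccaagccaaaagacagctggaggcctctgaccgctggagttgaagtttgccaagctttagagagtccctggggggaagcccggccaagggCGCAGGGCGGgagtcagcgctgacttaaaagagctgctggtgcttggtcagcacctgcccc
Col11a2, chr17:34038888-34039137, plus strand: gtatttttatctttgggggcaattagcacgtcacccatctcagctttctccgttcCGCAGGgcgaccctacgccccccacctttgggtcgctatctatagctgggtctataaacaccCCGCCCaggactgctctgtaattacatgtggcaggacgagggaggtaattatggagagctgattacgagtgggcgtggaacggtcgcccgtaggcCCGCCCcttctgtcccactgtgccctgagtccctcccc
Col13a1, chr10:61979109-61979358, minus strand: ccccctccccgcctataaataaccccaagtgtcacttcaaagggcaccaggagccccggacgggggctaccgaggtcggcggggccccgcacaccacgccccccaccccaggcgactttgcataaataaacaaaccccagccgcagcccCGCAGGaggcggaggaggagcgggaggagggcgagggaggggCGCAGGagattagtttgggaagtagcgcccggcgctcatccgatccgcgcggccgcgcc
Col8a1, chr16:57754738-57754987, minus strand: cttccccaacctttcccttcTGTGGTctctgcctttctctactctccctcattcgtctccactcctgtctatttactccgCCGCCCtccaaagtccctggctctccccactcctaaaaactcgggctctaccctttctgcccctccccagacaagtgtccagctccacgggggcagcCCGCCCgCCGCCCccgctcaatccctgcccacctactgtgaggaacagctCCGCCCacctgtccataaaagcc
The CIRE letters stand in the windows of *Col6a5*, *Col11a2* and *Col13a1*, where they overlap a GC box in *Col6a5* and occur in 2 places in *Col13a1*. They are not in that of *Col8a1*, which holds a RUNX site and 4 GC boxes. A match of letters is no measured binding. None of these 4 windows held an annotated exon, and the RefSeq start of *Col11a2* lies before that of GENCODE.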

How the data were processed

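Stranded mRNA libraries of 6 tumors were read from a single end. The table that the authors deposited holds raw read counts for each Ensembl gene and tumor, not normalized. By the study's methods and the submitters' processing notes, reads were aligned to GRCm38 with HISAT2 2.0.2 and counted with featureCounts (Subread 2.0.0). The treatment of multi-mapping and opposite-strand reads is not given in the sources used here.

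Symbols and coordinates were those of GENCODE M21 on GRCm38, a later annotation than that of the counting, and 37607 of 39179 identifiers matched. The main test was the quasi-likelihood F test of edgeR 4.0.16 in R 4.3.3 on all 6 libraries (TMM, filterByExpr, genotype alone, Benjamini-Hochberg over the 16839 genes tested). A standard error is the log2 fold change over the square root of F. The floor of 3 counts was from 0.0990 to 0.252 CPM. Intervals of count ratios (95%, exact, conditional on the sum) cover counting error only. Labels give a mouse number per tumor but no litter, so p-values measure the spread between these libraries. The main fits counted the nearly proportional No316 and No368 as 2 samples, which can make that spread and the p-values too small. In edgeR the unadjusted p of *Col8a1* was 0.0385, and 0.0543 with the pair summed. That of *Col18a1* was 0.0194, and 0.0600 with the pair summed. Alternatives were DESeq2 1.42.0 (with and without its Cook's distance filter), limma-voom (limma 3.58.1), other scalings and filters, No316 and No368 summed, and each tumor left out. The edgeR fit was also run on simulated counts. A pass was required only at a spread far below that of these tumors, so this does not show how well the fit works here. DESeq2 gave no adjusted p for 11 of the 44 chains.

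Chains were chosen by symbol, and chains, classes and lists of enzymes, receptors and markers were chosen with earlier results of these data known. Values in every tumor were given for the 12 chains highest per kilobase, for those with an unadjusted p under 0.05 in edgeR, an adjusted p under 0.05 in DESeq2 or genotypes that do not overlap (at least 100 counts in all), and for their partners in a trimer, and for at most 6 pathway genes with an unadjusted p under 0.05. Pathway genes named as a count of 5 or fewer were named after their values were seen. Repeats were runs of at least 3 units with a GGN codon in first place. Promoter windows came from RefSeq, and *Col1a1* and 8 other genes without a window were not searched.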

Additional observations from a re-analysis of the deposited data

How the results depend on the processing

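No chain was called at an adjusted p under 0.05 by edgeR under any scaling, any filter or any tumor left out, but DESeq2 called 1, DESeq2 without Cook's distance filter 4 and DESeq2 with No316 and No368 summed 1. Chains higher at an unadjusted p under 0.05 (2 in the main test) were 4 without a filter, 5 by DESeq2 in each of its 3 forms, 1 with at least 10 counts in every tumor and 1 by limma-voom, and from 1 to 3 with a tumor left out. Chains lower (1 in the main test) were 0 with library size alone, 0 with the pair summed, 4 by limma-voom and from 0 to 5 with a tumor left out. Pathway genes called (0 in the main test) were 1 (*Bmp1*) by DESeq2 with or without Cook's filter and 0 by DESeq2 with the pair summed. Pathway genes higher (2) were 1 with at least 10 counts, 1 by limma-voom, 1 with the pair summed, 4 by DESeq2 with or without Cook's filter and from 0 to 3 with a tumor left out, and those lower (3) were 1 with library size alone, 1 with the pair summed in edgeR or DESeq2, 5 by DESeq2 with or without Cook's filter, 5 by limma-voom and from 0 to 6 with a tumor left out. The log2 fold change of *Col1a1*, 0.02 in the main test, was -0.011 with library size alone, -1.09 by limma-voom and from -1.17 to 0.58 with a tumor left out (-0.24 without No244), and that of *Col1a2* was from -2.23 to 0.32 (0.08 without No279). The cause was not tested. Over 15 genes and 230 alternative values, 6 changed direction, 9 passed the threshold only in the alternative and 215 kept both. No paired analysis was possible because the mouse numbers of the 2 genotypes are not shared. Precision was limited by the spread between tumors and by there being 2 or 3 separate samples a genotype. The common biological coefficient of variation was 0.708 over the libraries as deposited, with No316 and No368 counted apart.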
